A study of Mus musculus with 8 samples.

Results

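The level of 4 liver miRNAs, mmu-miR-101a, mmu-miR-101b, mmu-miR-26a and mmu-miR-26b, was followed in mice that received CCL4 (carbon tetrachloride) dissolved in olive oil and in mice that received olive oil alone. They form the miR-101 and the miR-26 family, and they were chosen by name from the 567 mouse miRNAs of the array. The mice were 8-week-old male C57BL/6J mice, injected into the peritoneum, at first 2 times a week and from the fifth week once a week. Livers were taken at 4, 6 and 8 weeks, and the labels give fibrosis as the state of the CCL4 livers and control as that of the others. There were 8 single-colour Agilent arrays of total liver RNA: 5 from CCL4 mice (1 at 4 weeks and 2 each at 6 and 8 weeks) and 3 from olive oil mice (1 at each week), called control arrays. The methods speak of 5 mice but tie no array to 1 mouse or to several, and n therefore counts arrays, whose spread is all that the p-values measure. CCL4 is a toxin that injures the hepatocytes around the central veins, and its repeated injection leads to scarring. All 4 miRNAs were called detected on all 8 arrays.

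miR-101 and miR-26 are best known together as repressors of Ezh2, the enzyme of the Polycomb repressive complex that methylates histone H3 and keeps genes silent. A miRNA pairs with a messenger RNA mainly through its seed, a short stretch near the 5′ end, so that members of a family with the same seed can act on the same targets. In the liver both families are known as growth restraining miRNAs that are often low in hepatocellular carcinoma. Ezh2 itself was not measured on these arrays.

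The mature sequences show how closely the a and the b members resemble each other and which bases a probe has to tell apart. They are RefSeq sequences on build GRCm38.p6, written 5′ to 3′ with bases 2 to 8 in capitals.
mmu-miR-101a: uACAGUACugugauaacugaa
mmu-miR-101b: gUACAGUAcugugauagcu
mmu-miR-26a: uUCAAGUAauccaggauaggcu
mmu-miR-26b: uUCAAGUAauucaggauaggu
RefSeq starts mmu-miR-101b 1 base earlier than mmu-miR-101a, so their bases 2 to 8 are not the same letters although the stretch ACAGUAC stands in both. Over the 18 bases that the pair share when aligned, 17 were identical and 1 differed, A16G, counted from 1 at the 5′ end of mmu-miR-101a with its base first. Over 21 bases mmu-miR-26a and mmu-miR-26b differed by C11U and C21U, counted from the 5′ end of mmu-miR-26a, and their seed UCAAGUA was the same. No other mature mouse miRNA in the RefSeq table had the bases 2 to 8 of mmu-miR-101a or of mmu-miR-26a and mmu-miR-26b.

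The 4 miRNAs come from 5 places in the genome. Mature mmu-miR-101a lies on chromosome 4 (GRCm38.p6 chr4:101346957-101346977, minus strand), within the span of the gene E130102H24Rik. That of mmu-miR-101b lies on chromosome 19 (chr19:29135338-29135356, plus strand) within Rcl1, a gene of ribosomal RNA processing. The same mature mmu-miR-26a is made from chromosome 9 (chr9:119031811-119031832, plus strand) within Ctdspl and from chromosome 10 (chr10:126995543-126995564, plus strand) within Ctdsp2, and the array cannot divide its signal between these genes. That of mmu-miR-26b lies on chromosome 1 (chr1:74394324-74394344, plus strand) within Ctdsp1. Ctdsp1, Ctdsp2 and Ctdspl encode small phosphatases that act on RNA polymerase II. The table gives no strand for the surrounding genes, so that the orientation of each miRNA to its host is not given here.

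The levels given here are signals relative to the 75th percentile over the 567 mouse miRNAs of that array. The study's methods divide by the 75th percentile of all measurements of a species to compare one-colour arrays, and taking it array by array is the reading used here. That percentile ranged from 6.53 to 11.0 among CCL4 arrays and from 4.71 to 6.48 among controls, which is near the lowest signal called detected (5.59 to 8.16 for 7 arrays, and 0.139 for that of CCL4 at 4 weeks). The tests used limma with week as a factor over the 133 miRNAs detected on at least 3 arrays, with Benjamini-Hochberg adjustment over all 133.

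Scaled in this way, mmu-miR-101b was lower on every CCL4 array than on every control array. Its level was 29.7 at 4 weeks, 36.1 and 45.1 at 6 weeks and 45.0 and 51.2 at 8 weeks across the CCL4 arrays, and 70.5, 77.7 and 67.3 at 4, 6 and 8 weeks on the control arrays. The CCL4 arrays did not overlap with the control arrays, and the one of 4 weeks was the lowest of all. That array had 158 miRNAs called detected, against 117 to 145 on the other arrays. On the log2 scale the levels were 5.35 ± 0.31 (SD, n = 5 arrays) and 6.16 ± 0.11 (SD, n = 3). With week in the model the log2 fold change was -0.86 (95% interval -1.25 to -0.47, standard error 0.176, adjusted p = 0.00995 from limma), which is 0.551 of the control level. In bulk liver RNA, fewer cells of a type that carries a miRNA and less of it per cell cannot be told apart.

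The level of mmu-miR-101a was 23.1 at 4 weeks, 23.4 and 31.6 at 6 weeks and 36.3 and 36.9 at 8 weeks across the CCL4 arrays, and 46.1, 41.9 and 41.3 on the control arrays. Again the groups did not overlap, but the CCL4 arrays of 8 weeks came close to the controls. The log2 levels were 4.89 ± 0.33 (SD, n = 5) and 5.43 ± 0.09 (SD, n = 3), and the log2 fold change was -0.56 (95% interval -0.97 to -0.16, standard error 0.183, adjusted p = 0.0269 in the limma fit).

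For mmu-miR-26b the level was 53.9 at 4 weeks, 57.5 and 73.4 at 6 weeks and 76.3 and 83.0 at 8 weeks on the CCL4 arrays. On the control arrays it was 98.3, 97.5 and 97.7, the narrowest spread of the 4 miRNAs over these 3 arrays. The log2 fold change was -0.56 (95% interval -0.92 to -0.19, standard error 0.164, adjusted p = 0.0232 in the limma fit).

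The level of mmu-miR-26a was 69.2 at 4 weeks, 75.1 and 94.8 at 6 weeks and 93.5 and 103.1 at 8 weeks across the CCL4 arrays, and 109.2, 117.4 and 107.6 on the control arrays. These groups did not overlap either, though the highest CCL4 array, of 8 weeks, lay just below the lowest control array. The log2 fold change was -0.40 (95% interval -0.76 to -0.04, standard error 0.162), and with an adjusted p of 0.0596 from limma it did not pass the threshold of 0.05.

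Thus 3 of the 4 miRNAs were lower in CCL4 mice over all weeks, against a background of 35.3% of all tested miRNAs that were lower and 13.5% that were higher. All 4 were below the control array of the same week on 5 of 5 CCL4 arrays, as were 51.9% of the tested miRNAs. For all 4 every CCL4 array was below every control array, as for 43.6% of the tested miRNAs. Ranked from the most lowered upward among the 133, mmu-miR-101b was at place 4, mmu-miR-101a at 28, mmu-miR-26b at 35 and mmu-miR-26a at 55. The median log2 fold change was -0.56 over the 4 and -0.32 over the 133, and it was -0.36 over the 113 miRNAs detected on all arrays. Set against the latter, mmu-miR-101b stood at -0.50, mmu-miR-101a and mmu-miR-26b at -0.20 each and mmu-miR-26a at -0.04 on the log2 scale.

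**Figure D1:**
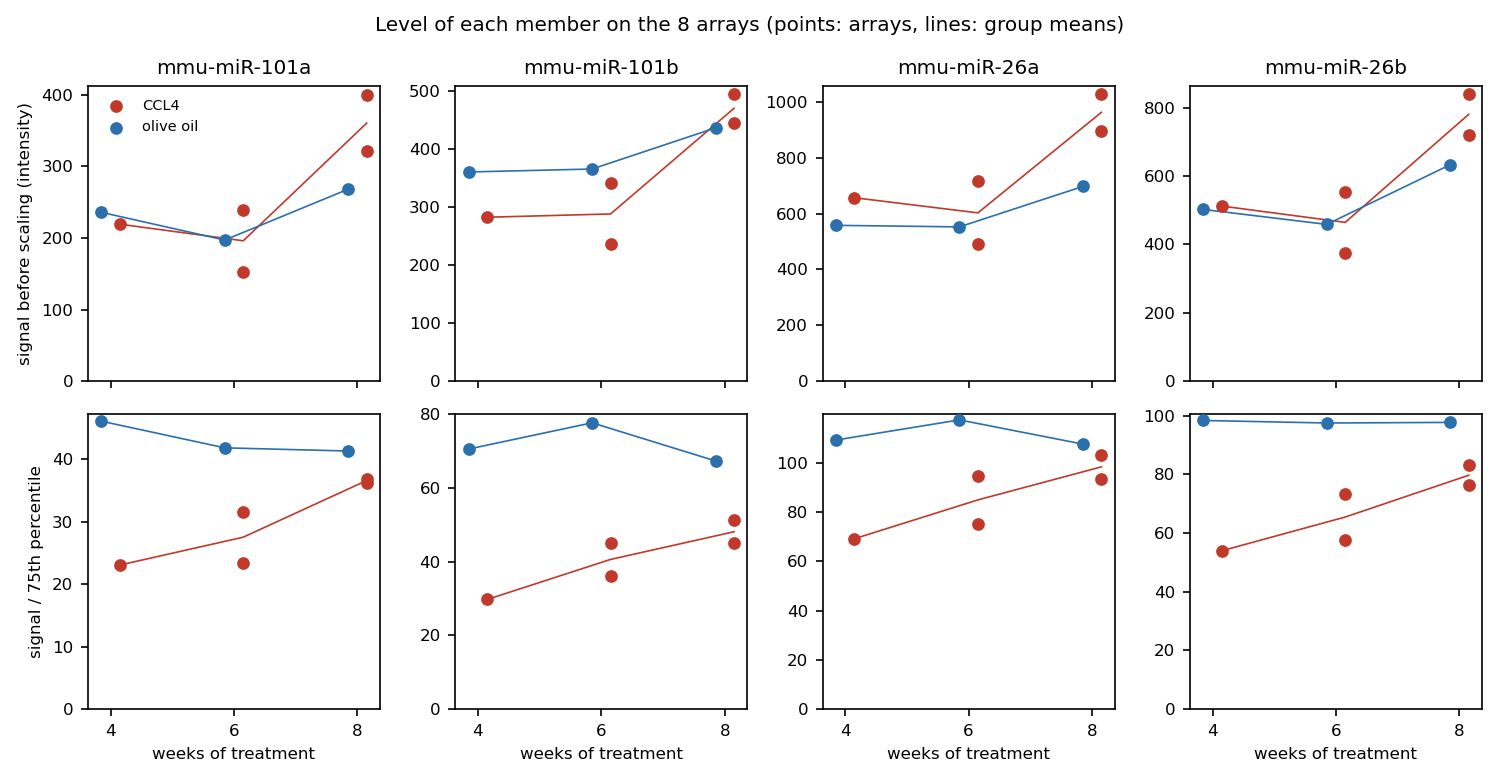
Level of the 4 miRNAs on each of the 8 arrays, before scaling in the upper row (signal intensity) and divided by the 75th percentile of the array in the lower row, against weeks of treatment. Points are arrays (red CCL4, blue olive oil) and lines join the group means. In the lower row all CCL4 points lie below the olive oil points, and in the upper row they overlap for each miRNA.

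**Figure D2:**
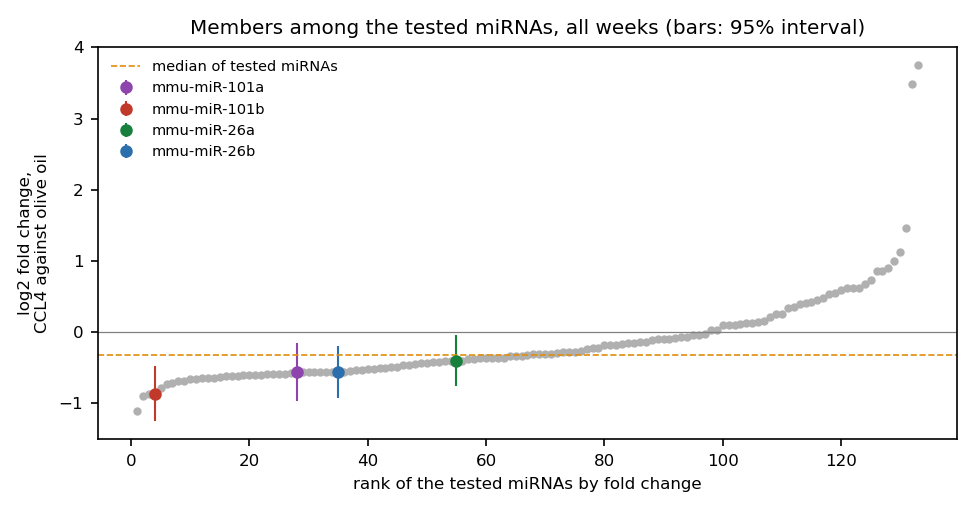
Log2 fold change of CCL4 against olive oil over all weeks for the 133 tested miRNAs, ordered by size, with the 4 miRNAs in colour and their 95% intervals as bars. The dashed line is the median of the tested miRNAs (-0.32), to which mmu-miR-26a (-0.40) lies closest and from which mmu-miR-101b (-0.86) lies farthest.

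Whether the 4 miRNAs were lower at all depended on the scaling, since the unscaled signals of the groups overlapped. Unscaled mmu-miR-101b had a signal of 282, 235, 341, 495 and 445 with CCL4 and of 360, 365 and 436 in controls, in the order of weeks. Unscaled mmu-miR-26a had a signal of 657, 490, 715, 1030 and 896 with CCL4 and of 558, 552 and 697 in controls. The CCL4 arrays of 8 weeks were the brightest for all 4 miRNAs. Without scaling, the log2 fold change was -0.19 for mmu-miR-101b and it turned to 0.11 for mmu-miR-101a, 0.27 for mmu-miR-26a and 0.11 for mmu-miR-26b, with adjusted p of 0.379 or more in limma. At the same time the median of the 113 miRNAs with detection on every array moved from -0.36 to 0.31, so that the place of each miRNA relative to it stayed as it was. When the percentile came from these 113 miRNAs alone, that median was -0.16, and the log2 fold change was -0.66 for mmu-miR-101b (adjusted p = 0.0104 from limma), -0.36 for mmu-miR-101a (0.0747), -0.36 for mmu-miR-26b (0.0694) and -0.20 for mmu-miR-26a (0.212).

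Quantile normalization and cyclic loess, which also adjust for brightness, widened the range from mmu-miR-101b to mmu-miR-26a but brought mmu-miR-101a nearer to mmu-miR-101b. Under them mmu-miR-101b remained lower (-0.52 and -0.55, adjusted p = 0.0282 and 0.0142 from limma), and mmu-miR-26a was on the other side of 0 (0.02 and 0.13) without passing the threshold. The values of mmu-miR-101a were -0.29 and -0.38 and those of mmu-miR-26b were -0.21 and -0.08, none of them past the threshold. Brightness went along with the fold changes under the 75th percentile. The miRNAs detected on all arrays were split by their mean signal into 3 groups, a split chosen after the data were seen. The median log2 fold change was -0.28 over the 37 dimmest, -0.32 over the 38 in between, which hold mmu-miR-101a, and -0.54 over the 38 brightest, which hold mmu-miR-101b, mmu-miR-26a and mmu-miR-26b. The part of brightness in these differences was not tested.

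**Figure D3:**
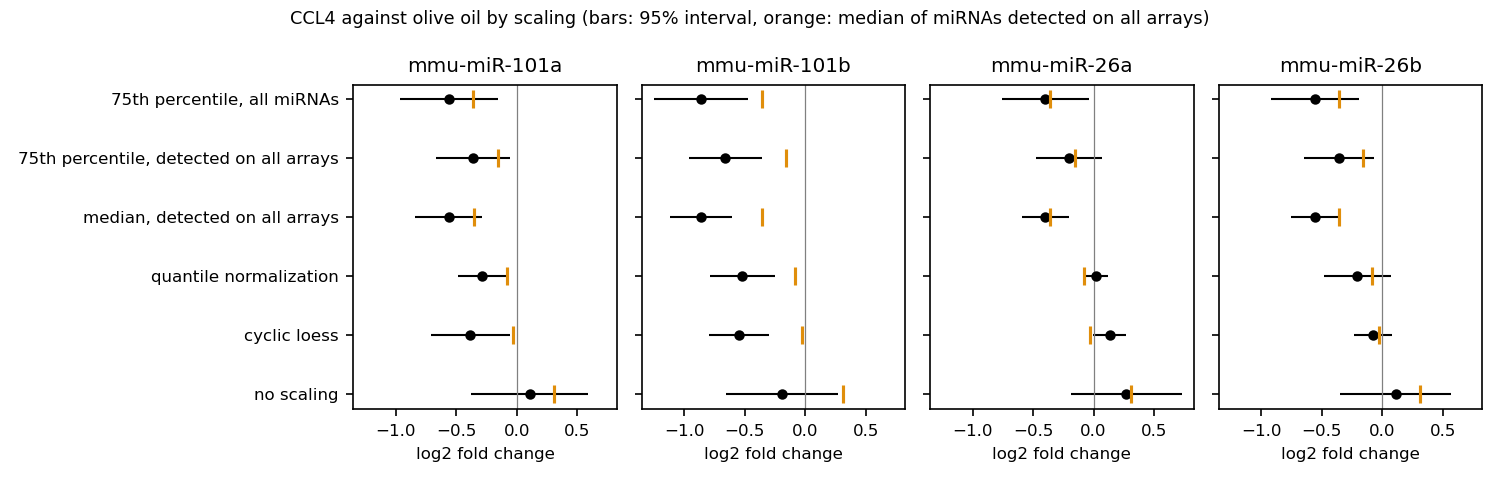
Log2 fold change of CCL4 against olive oil over all weeks for each of the 4 miRNAs under 6 ways of scaling the arrays. Points are estimates, bars are 95% intervals and orange ticks mark the median of the 113 miRNAs detected on all arrays under the same scaling; mmu-miR-101b lies left of the tick in every row, and mmu-miR-26a lies to its right with quantile normalization and cyclic loess, and 0.04 to its left in the other rows.

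With this scaling the differences from the control array of the same week were widest at 4 weeks and narrowest at 8 weeks, an order that depended on the processing. With summed spot signals 6 weeks was widest for all 4 (-0.72 against -0.59 at 4 weeks for mmu-miR-101a), and with the percentile over miRNAs detected on all arrays 6 weeks was narrowest for all 4 (-0.16 against -0.25 at 8 weeks for mmu-miR-101a). Each week had 1 control array, and 4 weeks also had 1 CCL4 array. The spread in these tests came only from the 2 CCL4 arrays each at 6 and 8 weeks, and limma pooled it fully over the 133 miRNAs, so that each had the same standard error (0.328 at 4 weeks and 0.284 at 6 and 8 weeks). The lone arrays were assumed to vary alike, and at 4 weeks no replicate of either treatment stands behind a call. At 4 weeks the level of mmu-miR-101b was 0.421 of the control level (limma, adjusted p = 0.00132), that of mmu-miR-101a 0.500 (adjusted p = 0.00991), that of mmu-miR-26b 0.549 (adjusted p = 0.0228) and that of mmu-miR-26a 0.633 (adjusted p = 0.0863). By this borrowed spread 3 of the 4 passed as lower, against 33.1% of the tested miRNAs (12% were higher). At 6 weeks mmu-miR-101b stood at 0.519 times control (adjusted p = 0.0166 in limma) and was the only one of the 4 past the threshold, against 3.01% of the tested miRNAs that were lower. The others were at 0.651 (mmu-miR-101a), 0.666 (mmu-miR-26b) and 0.719 (mmu-miR-26a). At 8 weeks none of the 4 passed in limma, also without adjustment (0 of 4), and 0.752% of the tested miRNAs were lower. The levels were then 0.713 of the control level for mmu-miR-101b, 0.815 for mmu-miR-26b, 0.886 for mmu-miR-101a and 0.913 for mmu-miR-26a.

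In all 3 weeks mmu-miR-101b had the lowest level relative to control and mmu-miR-26a the highest. Without either CCL4 array of 8 weeks, 1 of the 4 passed at 4 weeks and 0 at 6 weeks, and all 4 passed at 6 weeks when CCL4 replicate 2 of that week was left out. The test of whether the treatment effect differed between weeks passed for none of the 4 (limma interaction test, with adjusted p from 0.592 to 0.806, and 0 of 4 without adjustment), while 6.02% of the tested miRNAs passed it. The median of the miRNAs detected on all arrays moved the same way, from -0.56 at 4 weeks to -0.45 at 6 weeks and -0.14 at 8 weeks.

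The a and the b member of a family were then compared within each array, where the scale of the array cancels. The ratio of the signal of mmu-miR-26a to that of mmu-miR-26b was 1.28 at 4 weeks, 1.31 and 1.29 at 6 weeks and 1.23 and 1.24 at 8 weeks on the CCL4 arrays. On the control arrays it was 1.111, 1.205 and 1.101. The groups did not overlap, and on these CCL4 arrays the b member was lower relative to the a member. How many other pairs of miRNAs would separate in this way was not counted, so the separation cannot be called particular to this pair. The log2 ratio was 0.34 ± 0.04 with CCL4 (SD, n = 5 arrays) against 0.19 ± 0.07 with olive oil (SD, n = 3). The difference of 0.16 is a 1.12-fold change of the ratio (two-sided exact permutation test over 56 splits, p = 0.0179, the smallest it can give, and 0.0357 adjusted over the 2 pairs). Doubling the smaller tail in place of counting absolute differences gave an adjusted p of 0.0714 in the exact permutation test, which a single pair cannot go below in this design. Without any 1 of the arrays the miR-26 groups still gave the smallest exact p possible (0.0286 for 4 against 3 arrays, 0.0476 for 5 against 2). After adjustment this passed only in the 2 cases in which the miR-101 pair reached it too, and for the other 6 the limit was that of the design.

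The ratio of mmu-miR-101a to mmu-miR-101b went the same way with a larger change and a wider spread. It was 0.776 at 4 weeks, 0.650 and 0.702 at 6 weeks and 0.807 and 0.721 at 8 weeks across the CCL4 arrays, and 0.654, 0.539 and 0.614 on the control arrays. The groups overlapped at 1 point, the first CCL4 array of 6 weeks against the control array of 4 weeks. The log2 ratio was -0.46 ± 0.12 with CCL4 (SD, n = 5) against -0.74 ± 0.14 with olive oil (SD, n = 3), a difference of 0.28, or a 1.21-fold change of the ratio. The exact permutation test over 56 splits gave p = 0.0536, which did not pass the threshold. It passed without the first CCL4 array of 6 weeks (log2 difference 0.32) or without the control array of 4 weeks (log2 difference 0.34). These are the arrays that overlapped, so leaving out either separates the groups and gives the smallest p by construction. Both olive oil and CCL4 arrays had their lowest ratio of this pair at 6 weeks.

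Set against the control array of the same week, both ratios were higher on 5 of 5 CCL4 arrays, a count not made for other pairs of miRNAs. For mmu-miR-101a over mmu-miR-101b the log2 difference was 0.25, 0.32 and 0.31 at 4, 6 and 8 weeks, and for mmu-miR-26a over mmu-miR-26b it was 0.21, 0.11 and 0.16. When arrays were exchanged only within their week, the exact permutation test over 18 arrangements gave p = 0.0556 for both pairs, the smallest it can give. With week as a factor, limma on the 2 log2 ratios gave a difference of 0.30 for the miR-101 pair and 0.16 for the miR-26 pair, both with an adjusted p of 5.69e-04. That fit estimated its common spread from these 2 ratios alone, so its p-value is no firmer than those of the exact permutation tests. The signals of different probes are not comparable as amounts, so a ratio above or below 1 does not say which member was more abundant.

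**Figure D4:**
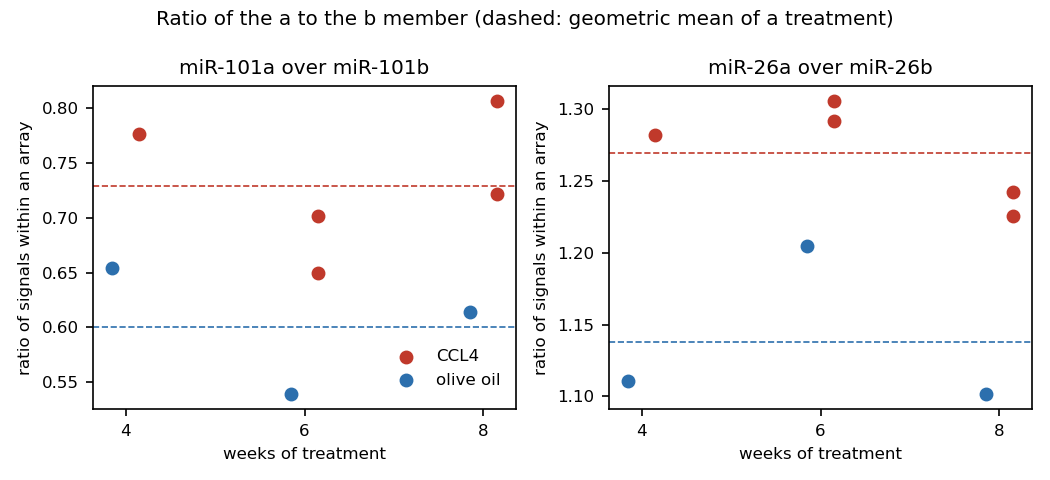
Ratio of the signal of the a member to that of the b member within each array, against weeks of treatment, for the miR-101 pair (left) and the miR-26 pair (right). Points are arrays (red CCL4, blue olive oil), dashed lines are geometric means of a treatment and the axes do not start at 0; at each week the CCL4 points lie above the olive oil point.

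Each of the 4 miRNAs was read by 2 probes that differ by 1 base in length and had 20 spots in all. The probes were 20 and 21 bases long for mmu-miR-101a, 17 and 18 for mmu-miR-101b, 15 and 16 for mmu-miR-26a and 19 and 20 for mmu-miR-26b. All 20 spots of each miRNA were well above background on all 8 arrays and none was saturated. The longer probe gave most of the signal for mmu-miR-101b (78.0% to 79.5% over the arrays) and for mmu-miR-26a (68.5% to 70.4%), and these shares were alike in both treatments. The probes of a miRNA gave nearly the same log2 fold change: -0.56 and -0.56 for mmu-miR-101a, -0.84 and -0.87 for mmu-miR-101b, -0.40 and -0.40 for mmu-miR-26a and -0.56 and -0.56 for mmu-miR-26b, from a linear model with week. The 4 combinations of probes gave a log2 difference of the ratio from 0.25 to 0.29 in the miR-101 pair and from 0.15 to 0.17 in the miR-26 pair. How far a probe also captures the other member of its family, which differs from it by few bases, was not tested.

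The opposite strands of 2 of the hairpins were also on the array. Neither mmu-miR-101a* nor mmu-miR-26b* was called detected on any of the 8 arrays, with signals of -7.02 to -2.22 and of -0.01 to 1.62. They can show no difference at this sensitivity.

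Over the 8 arrays the scaled log2 levels of the 4 miRNAs moved closely together, with Pearson's r from 0.937 (mmu-miR-101a and mmu-miR-101b) to 0.983 (mmu-miR-101a and mmu-miR-26b). This is a description over arrays that share the scale of each array and the treatment, and the median r of the members with all tested miRNAs was already 0.707 to 0.775. The lowest of the values between members was that within the miR-101 family. The miRNAs with the pattern most like mmu-miR-101a were mmu-miR-212 (r = 0.994), mmu-miR-29b (0.983) and mmu-miR-15a (0.981). Those most like mmu-miR-101b were mmu-let-7f (0.993), mmu-miR-122 (0.988), the main miRNA of hepatocytes, and mmu-miR-151-5p (0.987). For mmu-miR-26a they were mmu-let-7d (0.993), mmu-let-7g (0.984) and mmu-miR-361 (0.983), and for mmu-miR-26b they were mmu-miR-29b (0.991), mmu-let-7f (0.991) and mmu-miR-15a (0.984).

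Of 13 other miRNAs listed as reported repressors of Ezh2, 9 were tested, and with CCL4 2 of them rose and 3 fell across the weeks. Over all tested miRNAs 13.5% were higher and 35.3% lower, a share near that of the 3 of 9. The median log2 fold change of the list was -0.40, against -0.32 for all tested miRNAs. Those lower were mmu-let-7a (-0.63), mmu-let-7b (-0.64) and mmu-let-7c (-0.58), members of the let-7 family of growth restraining miRNAs, with adjusted p from 0.0179 to 0.0209 in limma. Higher were mmu-miR-214 (1.00, adjusted p = 0.0118 from limma), a miRNA of mesenchymal cells, and mmu-let-7e (0.63, adjusted p = 0.0183 from limma). Of these, mmu-miR-214 was detected on 5 CCL4 arrays but on 1 control array, so it entered the test through the group in which it was high. Its control signals of 5.19 to 11.9 were near the lowest signal called detected. The values of mmu-miR-98, mmu-miR-25, mmu-miR-30d and mmu-miR-144 were -0.34, -0.30, -0.40 and -0.42 and did not pass. On no array were mmu-miR-138, mmu-miR-124 and mmu-miR-217 detected, and mmu-miR-137 was detected on 2. The falls of the list depended on the scaling: 0 passed with the percentile over miRNAs detected on all arrays, with cyclic loess or without scaling, 2 with quantile normalization and 6 with the median as scale, and without scaling the median of the list was 0.27.

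Marker lists of liver cell types are given beside these levels, and their counts stand against the 35.3% of all tested miRNAs that were lower and the 13.5% that were higher. The hepatocyte miRNAs mmu-miR-122, mmu-miR-192, mmu-miR-194 and mmu-miR-148a were detected on all arrays. In CCL4 mice 4 of 4 were lower (median log2 fold change -0.63). Their summed scaled level was 2418 to 4278 with CCL4 and 5438 to 6074 in controls. That sum was mostly mmu-miR-122, with a control signal of 24201 to 30018 before scaling, against 2778 to 3335 for mmu-miR-192, the next brightest. The 4 falls too depended on the scaling, and 1 passed with the percentile over miRNAs detected on all arrays. None passed with quantile normalization, cyclic loess or no scaling, and without scaling the median of the 4 was 0.04. Of 6 mesenchymal miRNAs 5 were tested and 4 were higher (median 0.74), with a summed level of 30.6 to 50.3 against 22.4 to 29.4. Under the other scalings 3 to 5 were higher. Among these, mmu-miR-214 entered the test through the CCL4 arrays, being detected on 5 of them and on 1 control array. Of the mesenchymal list, mmu-miR-145 was not detected on any array. Of 6 leukocyte miRNAs 4 were tested, 0 were higher and 1 (mmu-miR-146a) was lower, with summed levels of 50.4 to 145 and 72.2 to 107 that overlapped. Of these, mmu-miR-150 was not detected on any array. Without scaling 1 leukocyte miRNA was higher and 0 were lower. Of 5 epithelial miRNAs 2 were tested and 1 was higher (0 with quantile normalization, 2 under the other scalings), with summed levels of 4.75 to 7.34 and 4.64 to 4.91, and of the others mmu-miR-200c, mmu-miR-141 and mmu-miR-429 were detected on no array. None of 3 erythroid miRNAs passed (limma, median -0.55, and 1 without adjustment), with summed levels of 378 to 961 and 537 to 1225. The erythroid sum was mostly mmu-miR-451, with a control signal of 2398 to 5832 before scaling, against 108 to 375 for mmu-miR-144. The part of these cell types in the levels of the miR-101 and miR-26 families was not tested.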

How the data were processed

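Intensity values were made by the authors with Agilent Feature Extraction (version 10.5.1.1 per the file headers; the methods name an older one), with background subtraction at the spots and a sum over the probes of a miRNA. As deposited they were not scaled between arrays. A deposited table of log2 values equalled the log2 of these signals, with signals under 1 set to 1, to within 1.107e-06. Array flags for detection were used as deposited.

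Each signal was scaled to the 75th percentile of its array, and log2 was taken after a floor of 0.01. The methods set this floor before the division, which left the values of the 4 miRNAs as they were. limma 3.58.1 in R 4.3.3 fitted treatment with week as a factor (4 residual degrees of freedom), and a mean per group for single weeks and the interaction (2 residual degrees of freedom, 4 of the 6 groups with 1 array). Ratios were compared by exact permutation of 5 against 3 arrays, two-sided by the absolute difference. The fits were run on simulated data with independent noise for each miRNA and array. Such noise leaves out any error shared by a whole array, so the run says nothing of the scaling. The number of arrays limits the precision.

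The members and lists were chosen with earlier results of these data known. Named were the 4 members, their star strands, miRNAs with the same seed, the listed Ezh2 repressors and the 3 miRNAs with the highest correlation to each member. Array names were matched to RefSeq arms through the distance between the probes of both strands (36 bases for mmu-miR-101a, 37 for mmu-miR-26b) and by sequence and name for the other two. The human biopsy and LX-2 cell data were not analysed here.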

Additional observations from a re-analysis of the deposited data

How the results depend on the processing

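The fall of mmu-miR-101b over all weeks kept its direction under all 28 alternatives and its call under 24. Several of these leave its estimate as it is by design, such as the floors, the deposited table and the filters. Leaving out either array of 4 weeks gives the same fit, so these counts do not measure stability. It was lost without scaling (-0.19), with normexp background correction (-0.24), without the filter on detection (-0.86) and under Bonferroni adjustment of the methods' t-test (-0.82), and over the arrays left out it was -1.07 to -0.72. That of mmu-miR-101a lost its call with the percentile over miRNAs detected on all arrays (-0.36), quantile normalization (-0.29), cyclic loess (-0.38), summed spot signals (-0.41), normexp (-0.0095), no filter (-0.56), no week term (-0.54), and with the methods' t-test after Benjamini-Hochberg or Bonferroni adjustment and the exact permutation test (-0.54), and it turned without scaling (0.11). That of mmu-miR-26b lost it under the same percentile (-0.36), quantile normalization (-0.21), cyclic loess (-0.077), summed spots (-0.39), no filter (-0.56), no week term (-0.53), Bonferroni (-0.53) and the exact test (-0.53), and turned without scaling (0.11) and with normexp (0.0083). With an array left out, mmu-miR-101a was -0.78 to -0.40 and mmu-miR-26b -0.71 to -0.44, and both calls were lost without either array of 4 weeks or the control array of 6 weeks, and that of mmu-miR-101a also when CCL4 replicate 1 of 6 weeks was left out. The difference of mmu-miR-26a passed with the median as scale (-0.40), only miRNAs detected on all arrays (-0.40), the methods' t-test unadjusted (-0.37), the exact test with the smaller tail doubled (-0.37, an alternative chosen after seeing the data) and the replicate block (-0.50), and turned with quantile normalization (0.022), cyclic loess (0.13), no scaling (0.27) and normexp (0.14). Its range with an array left out was -0.56 to -0.30, and it passed without the control array of 8 weeks. The replicate block changed no other call on the levels over all weeks. The labels share only replicate 1 between treatments, so the numbers pair nothing. The number of tested miRNAs lower, 47, became 10 with the percentile over miRNAs detected on all arrays, 18 with quantile normalization, 11 with cyclic loess, 0 without scaling, 5 with summed spots, 0 with normexp, 0 without the filter, 16 without the week term, 23 and 1 with the t-test after Benjamini-Hochberg and Bonferroni adjustment, and 5 to 60 with an array left out. The cause of these changes was not tested, except that fewer arrays or more miRNAs enter where an array or the filter is left out. The normexp setting also added an offset of 50 to each spot before the percentile was taken, and the part of this offset was not tested.

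At 4 weeks mmu-miR-101b had a log2 fold change of -0.79 with quantile normalization, -0.88 with cyclic loess, -0.35 without scaling and -0.39 with normexp. That of mmu-miR-26b was -0.56, -0.20, 0.028 and -0.07 in the same order. With 1 array of each treatment, the members past the threshold changed under each of these. They also changed with scales from the miRNAs detected on all arrays, without the filter and with some arrays left out. At 6 weeks the 1 became 0 with the percentile over miRNAs detected on all arrays, quantile normalization, cyclic loess, no scaling, normexp and no filter, 4 with the median as scale and with summed spots, and 0 to 4 with an array left out. At 8 weeks the 0 became 2 with the median as scale and stayed 0 with an array left out. The interaction test passed for 1 member with summed spots. Single weeks turned for mmu-miR-26a with quantile normalization (0.030 at 6 and 8 weeks), cyclic loess (0.10, 0.13 and 0.16 at 4, 6 and 8 weeks), no scaling (0.24, 0.10 and 0.46), normexp (0.11, 0.0083 and 0.29) and summed spots (0.10 at 8 weeks), for mmu-miR-26b without scaling (0.028 at 4 and 0.30 at 8 weeks) and with normexp (0.17 at 8 weeks), for mmu-miR-101a at 8 weeks without scaling (0.42), with summed spots (0.027) and with normexp (0.19), and for mmu-miR-101b at 8 weeks without scaling (0.11).

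Both ratios kept their direction under all 21 alternatives, some of which (the deposited table, the smaller tail doubled) cannot change it. The miR-101 pair passed with summed spots (0.27), normexp (0.22), limma with week (0.30), limma with the replicate block (0.30) and the longer probes of both members (0.29), with 0.20 to 0.34 when an array was left out. Both limma fits drew their common spread from the ratios of the pairs alone. The miR-26 pair did not pass with quantile normalization (0.19), summed spots (0.15), exchange within weeks (0.16), the smaller tail doubled (0.16) and the shorter probe of mmu-miR-26a with either probe of mmu-miR-26b (0.16 and 0.15), and was 0.13 to 0.20 with an array left out. In this design exchange within weeks cannot pass, nor the doubled tail for 1 pair alone, so both say nothing of its stability.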
